A study of Mus musculus with 4 samples.

Results

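Sox4, Sox11 and Sox12 are the 3 members of the SoxC group of transcription factors, and their chromatin was read here in single nuclei of the mouse mammary epithelium. They were followed through reads over each gene with 2 kb on either side, through the deposited promoter regions at their starts, through the 67 of 145453 deposited distal regions that lie within 100 kb of those starts, and through the 3 of 427 motif columns that carry their names. They are 3 of the 21883 protein-coding genes with coordinates. The genes were selected on their fetal and adult accessibility and motif scores in these same libraries, so the differences between stages below are given as a description with no p-value. The nuclei came from EpCAM-positive, lineage-negative cells sorted from the mammary gland of wild-type CD1 mice, an outbred strain. The fetal group was taken at embryonic day 18 and the adult group at 8 weeks of age, with 2 libraries labelled as biological replicates in each group. Neither group carried an engineered allele or a treatment by its labels. The labels do not say whether an animal or a pool of animals stood behind a library, so the spread between libraries may be technical.

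SoxC proteins hold an HMG box, a domain that binds the minor groove of DNA at sequences around ACAAAG or ACAATG and bends it, and a transactivation domain at the C-terminal end. The genes have no introns and are active in many embryonic progenitors, among them those of nerve and mesenchyme, where they act with partial redundancy and support survival and maturation. Sox4 is induced by TGF-beta in mammary epithelial cells and is studied in epithelial to mesenchymal transition. Sox11 is known from the embryonic mammary gland and from breast tumours, and Sox12 is the least studied of the group.

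The 250 bases just before each start are shown because the reads of Sox4 and Sox11 peaked there in fetal libraries, while those of Sox12 peaked elsewhere. All 3 genes lie on the minus strand, and the sequences read 5′ to 3′ in the direction of transcription, from RefSeq on GRCm38.p6. They span chr13:28953700-28953949 for Sox4, chr12:27342719-27342968 for Sox11 and chr2:152398047-152398296 for Sox12. Capitals mark CCAAT on either strand (CCAAT or ATTGG), the core of the CCAAT box.
Sox4 promoter: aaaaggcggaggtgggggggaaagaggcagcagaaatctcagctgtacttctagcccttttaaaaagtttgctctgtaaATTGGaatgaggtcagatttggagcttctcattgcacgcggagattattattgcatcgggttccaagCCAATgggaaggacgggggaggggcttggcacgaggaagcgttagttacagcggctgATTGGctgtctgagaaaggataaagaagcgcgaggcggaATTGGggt
Sox11 promoter: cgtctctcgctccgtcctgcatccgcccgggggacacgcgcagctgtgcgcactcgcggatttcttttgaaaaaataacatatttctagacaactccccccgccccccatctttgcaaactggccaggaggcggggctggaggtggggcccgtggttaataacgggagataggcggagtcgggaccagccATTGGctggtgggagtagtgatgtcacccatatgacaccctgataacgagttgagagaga
Sox12 promoter: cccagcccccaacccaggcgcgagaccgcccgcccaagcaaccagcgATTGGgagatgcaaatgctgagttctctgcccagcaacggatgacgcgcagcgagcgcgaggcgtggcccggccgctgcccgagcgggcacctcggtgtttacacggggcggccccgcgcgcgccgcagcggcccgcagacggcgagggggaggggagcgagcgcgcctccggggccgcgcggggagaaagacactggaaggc

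The Sox4 window held 4 CCAAT matches, beginning 171, 104, 47 and 8 bases before the start, and the Sox11 and Sox12 windows held 1 each, 60 and 203 bases before it. Of the 32851 RefSeq promoter windows of the same length, 33.8% held at least 1 CCAAT match. The share with 4 or more was not counted. The windows also differed in base composition, with a GC content of 50.8% and 11 CpG for Sox4, 58% and 17 CpG for Sox11, and 74.4% and 35 CpG for Sox12. All promoter windows had a median GC content of 52.4% and a median of 6 CpG. The SOX cores ACAAAG and ACAATG and the AP-1 motif TGANTCA were also searched on both strands and had no match in the 3 windows. Among all promoter windows, 25.2% held either SOX core and 6.75% the AP-1 motif. A missing match says only that these letters are not in these 250 bases.

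The deposited table held 7846 nuclei in 14 numbered classes. Fetal replicates 1 and 2 gave 882 and 1695 of them, adult replicates 1 and 2 gave 2465 and 2804. These nuclei carried 6028168, 15801908, 13588107 and 19304830 reads in that order, and the median per nucleus was 5535.5 and 7488 in fetal and 4420 and 5457.5 in adult libraries. No barcode was shared by libraries. Classes were read through marker genes, a marker being raised where its log2(CPM + 2) lay at least 0.5 above the mean of the other classes. Adult classes 1 and 8 had all 8 of 8 basal markers raised and fetal class 4 had 6 of 8. Of 7 luminal progenitor markers, 6 were raised in adult classes 3 and 7 and in fetal class 9, and 5 in fetal class 5. Adult classes 2 and 11 had 7 and 6 of 7 mature luminal markers raised. Class 6, with 56 fetal and 157 adult nuclei, had all 6 of 6 fibroblast markers raised and none of 6 luminal markers, Epcam among them, so it goes against the EpCAM sort. Fetal class 12 had 3 of 8 basal and 3 of 6 fibroblast markers raised, 2 of 7 luminal progenitor markers and 0 of the 6 general luminal markers, and it and fetal class 13 are called by number only.

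Sox11, the member with the strongest transactivation domain, was far more accessible in fetal than in adult libraries. Over the gene span of 8451 bases (chr12:27334268-27342718) with 2 kb on either side, fetal libraries 1 and 2 had 59.9 and 56.5 CPM, that is, reads scaled to 1000000 reads of the listed nuclei. Adult libraries 1 and 2 had 7.36 and 8.44 CPM, from 100 and 163 reads against 361 and 893 in the fetal libraries. Every fetal value was several times every adult value, and the replicates of a stage lay close together. The log2 fold change, fetal over adult, was 2.86 ± 0.153 (SE, n = 2 libraries per stage) in the edgeR fit over all 18804 genes tested. In sums over a library, fewer nuclei of a type and less signal per nucleus cannot be told apart.

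Sox12 was higher in fetal libraries by a smaller step. Its span of 4436 bases (chr2:152393611-152398046) with the flanks had 93.1 and 78.7 CPM in fetal and 64.2 and 52.9 CPM in adult libraries, from 561, 1244, 872 and 1022 reads. The stages did not overlap, and the log2 fold change was 0.55 ± 0.122 (SE, n = 2 libraries per stage). Without fetal replicate 1 it was 0.46 and no longer passed the threshold.

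Sox4 was accessible at both stages. Its span of 4781 bases (chr13:28948919-28953699) with the flanks had 76.5 and 82.3 CPM in fetal and 67.2 and 61.5 CPM in adult libraries, from 461, 1301, 913 and 1187 reads. Again the stages did not overlap, but the log2 fold change of 0.31 ± 0.115 (SE, n = 2 libraries per stage) did not pass the edgeR threshold. It was 0.10 with no flank, and passed with a replicate block. This span also holds the long noncoding genes Gm46405 and Gm46406, whose reads cannot be told apart from those of Sox4. Sox11 and Sox12 passed, 2 of 3 members, where 22.2% of all genes tested passed. The CPM of the stages did not overlap in 58.4% of all genes tested. Since the stage contrast chose the members, these counts carry no further reading.

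Around the starts, the 3 genes differed in where the reads lay. In the 250 bases printed above, read midpoints of Sox11 gave 9.46 and 8.99 CPM in fetal and 0.442 and 0.414 CPM in adult libraries. The adult values rest on 6 and 8 reads, and the fetal excess of Sox11 ran on past the start, with 5.97 and 3.80 CPM in fetal and 0.662 and 0.363 CPM in adult libraries in the next 250 bases. For Sox4 the same window gave 13.6 and 16.6 CPM in fetal and 8.1 and 7.51 CPM in adult libraries, and the next 250 bases, past the start, gave 9.12 and 12.0 CPM in fetal and 6.48 and 4.61 CPM in adult libraries. The fetal excess of Sox4 thus straddled the start. A stretch further into the Sox4 gene ran the other way. The window centred 1125 bases in had 1.16 and 1.52 CPM in fetal and 4.93 and 3.68 CPM in adult libraries, and adult values were also higher, without overlap, in those centred 625, 1375 and 1625 bases in. Beyond it, the window centred 3125 bases in was again higher in fetal libraries, at 4.31 and 4.11 CPM against 2.5 and 2.49 CPM. Sox12 had 7.46 and 7.21 CPM in fetal and 6.7 and 6.06 CPM in adult libraries just before its start. Its summits lay elsewhere. In the window centred 875 bases before the start it had 12.9 and 12.6 CPM in fetal and 10.9 and 9.07 CPM in adult libraries. In the window centred 1625 bases after the start it had 11.8 and 12.5 CPM in fetal and 6.11 and 6.01 CPM in adult libraries. Of the Sox12 windows given here, the last, inside the gene, had the widest gap between the stages. These windows were singled out after their values were seen.

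**Figure D1:**
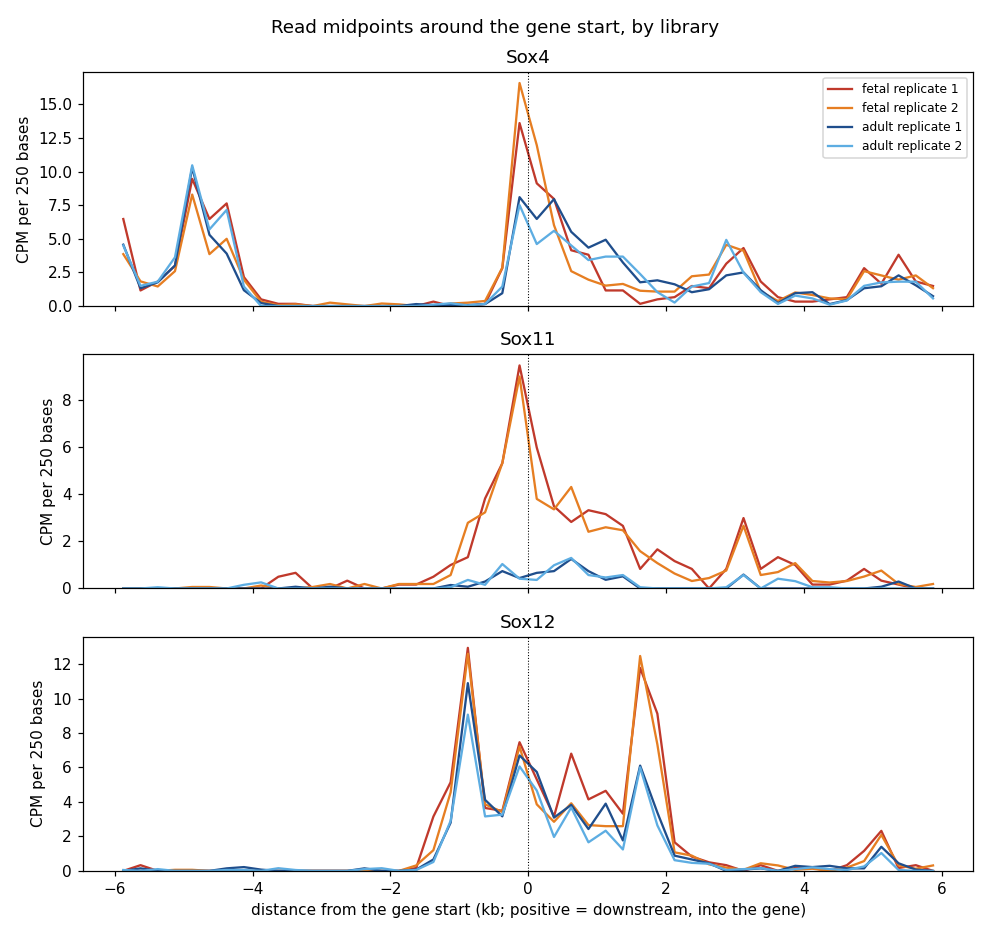
Read midpoints in windows of 250 bases (CPM, vertical axis) against the distance from the gene start in kb (horizontal axis), 1 line per library, for Sox4, Sox11 and Sox12. The fetal lines stand far above the adult lines at the Sox11 start, about 9 against 0.4 CPM, while Sox12 parts mainly at 1.6 kb inside the gene.

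In the deposited promoter regions Sox11 again had the widest stage difference. Sox4 and then Sox12 followed, in the other order than over the gene spans, but closer together than their SE. Without fetal replicate 2 their order turned, at 0.40 for Sox4 and 0.42 for Sox12. The Sox11 region (chr12:27341816-27342815, holding the start) had 24.4 and 22.2 CPM in fetal and 3.75 and 3.57 CPM in adult libraries, a log2 fold change of 2.65 ± 0.204 (SE, n = 2 libraries per stage). The Sox4 region (chr13:28952990-28953989, holding the start) had 37.3 and 40.1 CPM in fetal and 29.9 and 24.8 CPM in adult libraries, a log2 fold change of 0.52 ± 0.126, which fell to 0.40 and no longer passed without fetal replicate 2. For Sox12 no deposited promoter region holds the annotated start. The nearest one (chr2:152398304-152399303, just upstream of the start) had 31.2 and 28.3 CPM in fetal and 23.8 and 21.1 CPM in adult libraries, a log2 fold change of 0.40 ± 0.136. That call was lost with DESeq2, with scaling by total reads, with read midpoints, and without any 1 of the 4 libraries, although the value stayed between 0.34 and 0.43. All 3 regions passed in the fit over 18570 promoter regions, of which 21.5% passed and 55.5% had no overlap between stages. The stage contrast chose the members, so these calls carry no further reading.

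Distal regions, where enhancers are found, were mostly higher in fetal libraries around Sox11 and mixed around Sox4 and Sox12. Of 12 distal regions within 100 kb of the Sox11 start, 11 had enough reads to be tested, 8 passed as higher in fetal libraries and 0 as lower, and the median log2 fold change of the 11 was 1.78. Around Sox4, 28 of 29 regions were tested, 3 passed as higher and 5 as lower, with a median of 0.01. Around Sox12, 25 of 26 were tested, 6 passed as higher and 3 as lower, with a median of 0.20. Over all 122865 distal regions tested, 35.3% passed, 16.6% as higher and 18.8% as lower, the stages did not overlap in 68.5%, and the median was -0.01. The filter on low reads let a region pass through the stage where it is high, so these counts describe the regions tested and not all regions. Among those that passed as higher around Sox11, the regions 3.24, 5.07 and 6.95 kb downstream lie inside the gene. Their reads were also counted in the gene span. Since the stage contrast chose the members, these distal counts carry no further reading. The counts also rest on thin regions. Where the average over libraries had to reach 50 reads, 1 region passed as higher around Sox4 and 1 as lower around Sox12, and with DESeq2 the Sox12 count of lower regions was also 1. For Sox11 the count of higher regions was 2 under that limit and 5 without fetal replicate 2, and with read midpoints 1 region passed as lower. Within 250 kb of the Sox11 start 12 of 25 tested regions passed as higher and 2 as lower, for Sox4 13 and 13 of 61, and for Sox12 7 and 4 of 41.

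Near Sox11, both regions with an average of 50 reads or more per library were higher in fetal libraries. The region 14.6 kb upstream (chr12:27356852-27357851) had 12.1 and 8.61 CPM in fetal and 2.58 and 3.73 CPM in adult libraries, with a log2 fold change of 1.70 ± 0.297. The region 48.6 kb downstream (chr12:27293626-27294625) had 8.79 and 11.1 CPM in fetal and 4.19 and 2.49 CPM in adult libraries, with a log2 fold change of 1.66 ± 0.296. In neither did the stages overlap. No region within 100 kb of Sox11 above that average was lower in fetal libraries. The nearest other protein-coding gene, Cmpk2, lies 854 kb away.

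Among regions above the same average, the larger changes around Sox4 were falls. The region 22.6 kb downstream (chr13:28930622-28931621) had 2.32 and 2.59 CPM in fetal and 8.61 and 9.12 CPM in adult libraries, with a log2 fold change of -1.79 ± 0.316. That 99.4 kb downstream (chr13:28853829-28854828) had 3.65 and 4.68 CPM in fetal and 14.6 and 11.3 CPM in adult libraries, at -1.55 ± 0.267. That 60.9 kb upstream (chr13:29014081-29015080) had 5.81 and 7.53 CPM in fetal and 13.8 and 14.3 CPM in adult libraries, at -1.01 ± 0.239. In these 3 regions both adult values lay above both fetal values, whereas at the Sox4 promoter both lay below. The 3 regions with the highest positive values above it did not pass, at log2 fold changes of 0.59 (5.34 kb downstream, which passed at 0.64 with regions under 50 reads left out and at 0.59 with a replicate block), 0.47 (3.66 kb downstream, inside the gene) and 0.08 (72.0 kb downstream). Without adult replicate 2 the value at 3.66 kb was 0.16, and that at 72.0 kb ran from -0.34 without adult replicate 1 to 0.45 without adult replicate 2, so it has no stable direction. The nearest other protein-coding gene, Cdkal1, lies 238 kb from Sox4.

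Around Sox12 changes ran both ways. The region 2.17 kb downstream of the start (chr2:152395375-152396374), inside the gene, had 20.9 and 19.4 CPM in fetal and 9.57 and 7.61 CPM in adult libraries, with a log2 fold change of 1.27 ± 0.216. The region 47.7 kb downstream (chr2:152349852-152350851) had 19.9 and 22.5 CPM in fetal and 13.2 and 10.0 CPM in adult libraries, at 0.91 ± 0.207. The region 43.8 kb upstream (chr2:152441382-152442381) had 8.96 and 7.34 CPM in fetal and 6.62 and 3.16 CPM in adult libraries, at 0.78 ± 0.306. That last call was lost under 7 of 12 other settings, and the value was 0.21 without adult replicate 2 and 1.28 without adult replicate 1. Of the 3 regions that passed as lower, 1 reached an average of 50 reads, 39.6 kb upstream (chr2:152437144-152438143), with 10.3 and 12.1 CPM in fetal and 17.1 and 18.3 CPM in adult libraries, at -0.61 ± 0.212, a call lost with DESeq2 and without fetal replicate 1 or 2 (-0.52 and -0.69). Zcchc3, the nearest other protein-coding gene, is 13.9 kb away, so distal regions around Sox12 stand among other genes.

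**Figure D2:**
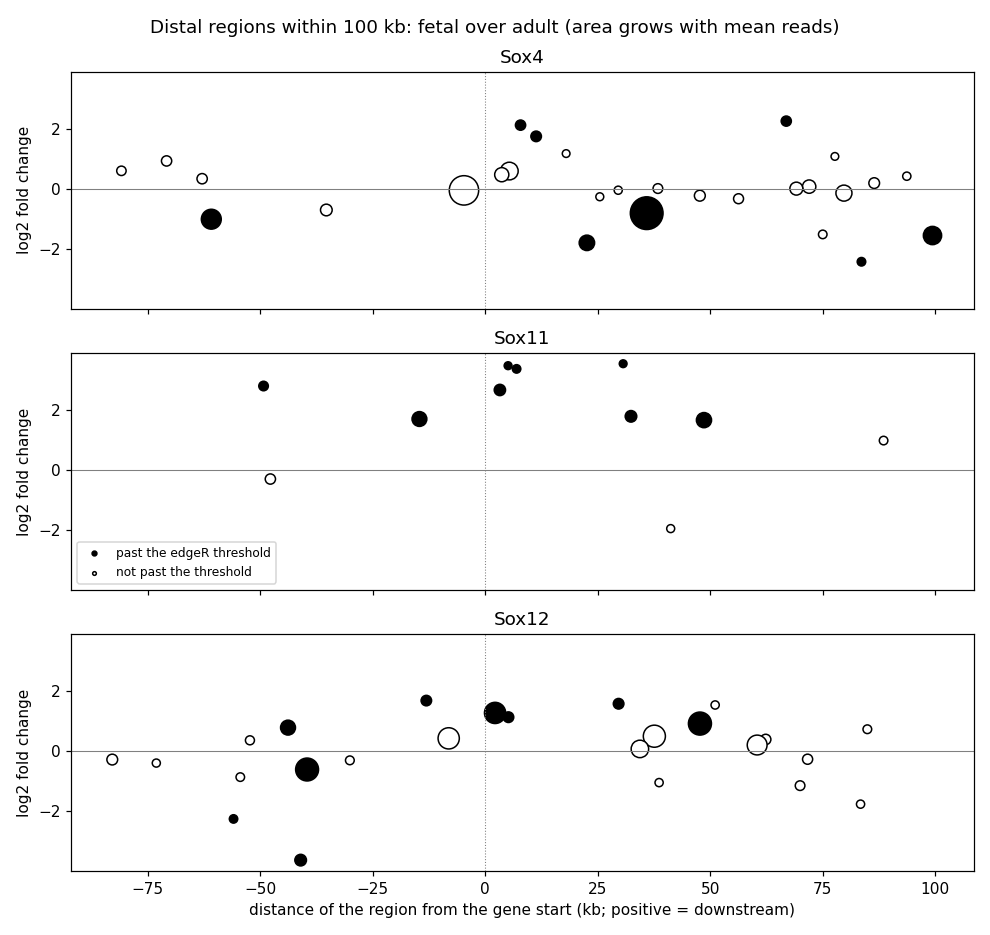
Log2 fold change, fetal over adult, of each tested distal region (vertical axis) against its distance from the gene start in kb (horizontal axis), with filled circles for regions past the edgeR threshold and circle area growing with mean reads. Around Sox11 all 8 filled circles lie above 0, while around Sox4 3 lie above and 5 below.

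The authors' deposited Cicero table scores how far pairs of regions open together across all nuclei, with no samples. A pair scoring at least 0.25 is called a link here, as 0.514% of all lines in that table are. The Sox11 promoter had 7 links among its 40 pairs, the highest at 0.456, while the Sox4 promoter had 0 among 101 pairs (highest 0.244) and the Sox12 promoter 0 among 94 (highest 0.228). At a score of at least 0.1 the order was 14 for Sox11, 9 for Sox4 and 4 for Sox12, and at 0.5 no promoter had any. The table pools nuclei of both stages, so the links of Sox11 are not independent of its stage difference.

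The 5 highest Sox11 links led to the region inside the gene 2.84 kb from the promoter region (0.456), and to regions 237 kb (0.439), 211 kb (0.385), 206 kb (0.383) and 15.0 kb (0.379) away. Sox11 was the nearest protein-coding gene to each of these 5 regions. The region inside the gene (chr12:27338975-27339974) had 6.30 and 5.63 CPM in fetal and 0.589 and 1.24 CPM in adult libraries. The most distant one (chr12:27104622-27105621) had 9.29 and 8.99 CPM in fetal and 1.84 and 1.66 CPM in adult libraries. That on the other side (chr12:27552467-27553466) had 6.97 and 7.59 CPM in fetal and 2.06 and 1.61 CPM in adult libraries. The remaining far one (chr12:27135734-27136733) had 6.97 and 8.42 CPM in fetal and 3.16 and 2.12 CPM in adult libraries. In each of these linked regions both fetal values lay above both adult values. The stages did not overlap in 68.5% of all distal regions tested, and these regions were picked by links that pool both stages. For Sox12, the best pair of the promoter was with the region inside the gene, 2.93 kb away, and the second with the promoter of Zcchc3 (0.178).

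Over the gene span, Sox11 means were higher in each of the fetal classes 4, 5, 9, 12 and 13 than in any adult class. The highest mean was in fetal class 12, with 89.0 and 49.1 CPM in fetal replicates 1 and 2. Fetal class 5 had 73.3 and 49.6, class 9 had 55.4 and 66.2, and class 4 had 45.3 and 50.5 CPM. The ranges of classes 12, 5 and 9 overlapped, so their order does not go beyond the spread between libraries, while both values of class 9 lay above both of class 4. Fetal class 13 had 20.4 and 45.8 CPM, from 6 and 28 reads. Adult classes had lower means, from 18.4 and 16.7 CPM in class 3 and 22.9 and 10.2 CPM in class 14 (6 reads each) down to 2.34 and 4.91 CPM in class 1 and 0 and 5.90 CPM in class 10. The class 1 and class 10 values rest on 2 and 10 reads and on 0 and 4 reads, and the higher class 14 value lay above the lower value of fetal class 13. In the fibroblast-marked class 6, which holds both stages, Sox11 had 110 and 59.9 CPM in fetal nuclei and 9.47 and 10.4 CPM in adult nuclei, from 16, 21, 4 and 6 reads. The stage difference of Sox11 was thus also measured outside the epithelial classes. At the promoter region the classes of the stages overlapped, with 12.9 and 8.77 CPM in adult class 3 and 10.5 and 5.61 in adult class 8 against 10.3 and 21.9 in fetal class 4 and 6.81 and 19.6 in fetal class 13.

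Among adult classes, Sox11 over the gene span differed within each pair of similar classes. The luminal progenitor-marked class 3 had 18.4 and 16.7 CPM against 5.88 and 7.59 in class 7. In the basal-marked pair, class 8 had 15.8 and 12.8 CPM against 2.34 and 4.91 in class 1. In the mature luminal-marked pair, class 11 had 7.61 and 9.01 CPM against 4.06 and 4.23 in class 2, from 10, 29, 18 and 21 reads. At the Sox11 promoter region this last pair overlapped, with 0.761 and 2.80 CPM against 0.903 and 1.21, from 1, 9, 4 and 6 reads. Over the span, the higher class of each pair was the one with fewer of its reads in promoter regions. The shares were 21.0% against 27.1%, 17.9% against 25.6% and 19.4% against 24.5%. Sox12 ran the other way, with 74.2 CPM in class 1 against 50.1 in class 8, 52.7 in class 7 against 40.9 in class 3, and 74.3 in class 2 against 46.0 in class 11, as means of 2 libraries. The part of the promoter share in these differences was not tested.

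Sox12 means were highest in fetal classes 12 (108 and 93.6 CPM), 13 (119 and 68.6), 4 (111 and 70.5), 5 (97.5 and 74.6) and 9 (80.7 and 82.5). Fetal replicate 1 was above fetal replicate 2 in 4 of these 5 classes. The lowest mean was in adult class 3, with 45.9 and 35.9 CPM. Adult classes 1 and 2, at 82.0 and 66.3 CPM and at 76.1 and 72.5 CPM, overlapped the fetal range, so Sox12 accessibility did not separate the classes by stage. In class 6 Sox12 had 69.1 and 42.8 CPM in fetal and 104 and 64.0 CPM in adult nuclei, which overlap. These rest on 10, 15, 44 and 37 reads.

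Sox4 varied least across the classes. Its highest means were in fetal classes 12 (90.5 and 87.2 CPM), 5 (84.0 and 92.8) and 9 (74.4 and 87.6), whose ranges overlapped. Adult class 3 followed with 75.3 and 67.0 CPM and fetal class 4 with 74.1 and 66.9. The lowest means were in adult class 1, with 50.4 and 53.1 CPM, and in fetal class 13, with 57.9 and 49. In class 6 Sox4 had 55.2 and 79.8 CPM in fetal and 63.9 and 48.4 CPM in adult nuclei, which overlap. Classes were drawn from the same nuclei, so these orders are a description.

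**Figure D3:**
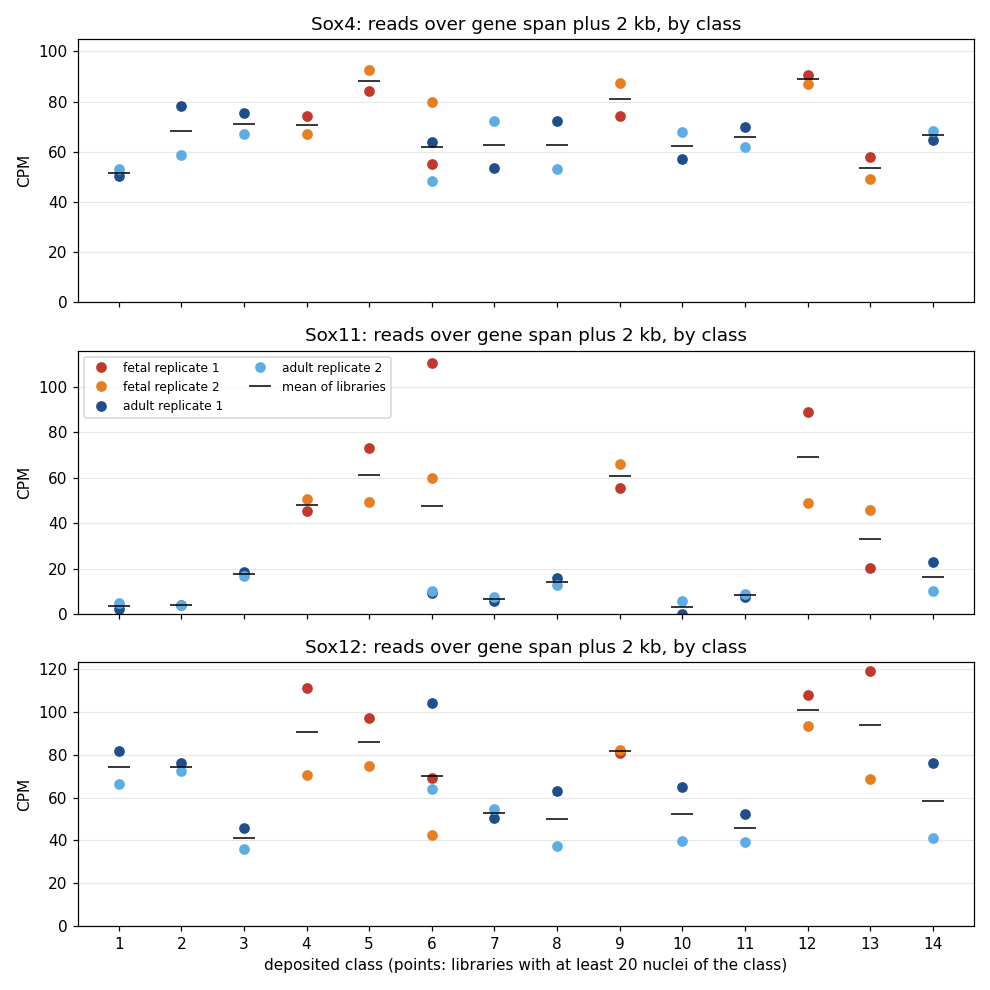
CPM over the gene span plus 2 kb (vertical axis) in each deposited class (horizontal axis), 1 point per library with at least 20 nuclei of the class and a bar at their mean. For Sox11 the fetal points lie at 20.4 CPM or higher and all adult points but 1, in class 14, below them, while Sox4 and Sox12 points of the stages mix.

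Within similar classes Sox11 was again several times higher in fetal nuclei. Fetal class 9 had 60.8 ± 7.70 CPM and adult classes 3 and 7 together 11.1 ± 1.29 CPM (SD, n = 2 libraries each), a ratio of 5.46. Fetal class 4 had 47.9 ± 3.68 CPM and adult classes 1 and 8 together 8.71 ± 0.0659 CPM (SD, n = 2), a ratio of 5.50. Both adult pools mix classes of unlike Sox11 level, so the ratios depend on the mix. Class means were 17.6 and 6.74 CPM in classes 3 and 7, and 3.63 and 14.3 CPM in classes 1 and 8. For Sox12 the luminal pair gave 81.6 ± 1.22 against 47.3 ± 2.48 CPM (SD, n = 2), a ratio of 1.73. The basal pair gave 90.8 ± 28.8 against 62.6 ± 14.8 CPM (SD, n = 2), where the libraries of the stages overlapped. For Sox4 the ratio was 1.24 in both pairs, from 81.0 ± 9.32 against 65.4 ± 5.98 CPM and from 70.5 ± 5.11 against 56.9 ± 5.38 CPM (SD, n = 2). With the adult classes pooled, the stages did not overlap in either pair, but the share of all genes without overlap in these pairs was not counted. Taken apart, adult class 3 had 75.3 and 67.0 CPM, reaching above the 74.4 of fetal replicate 1 in class 9. Adult class 8 had 72.2 and 53.1 CPM, reaching above the 66.9 of fetal replicate 2 in class 4.

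In the pooled pairs, some distal regions moved in 1 lineage more than in the other, by untested values. The region 14.6 kb upstream of Sox11 had 9.17 and 8.86 CPM in fetal class 9 and 4.69 and 9.72 in adult classes 3 and 7, which overlap. Taken apart, class 3 had 4.28 and 14.8 CPM, while class 7 had 4.90 and 4.93, below both class 9 values. Fetal class 5, which is outside the pairs, had the highest mean of all classes there, from 26.8 and 12.1 CPM. In the basal pair this region had 9.27 and 5.79 CPM in class 4 and 0 and 1.5 in classes 1 and 8. These rest on 9, 18, 0 and 6 reads. The region 48.6 kb downstream of Sox11 overlapped in the luminal pair. Taken apart, class 3 had 13.5 and 5.98 CPM and class 7 had 7.19 and 4.93, against 8.11 and 11.9 in class 9. In class 4 this region had 12.4 and 12.9 CPM against 4.33 and 2.25 in classes 1 and 8, from 12, 40, 7 and 9 reads. The region 99.4 kb downstream of Sox4, lower in fetal libraries as a whole, was a luminal one. It had 6.35 and 7.21 CPM in class 9 and 18.5 and 10.5 in classes 3 and 7, but only 2.06 and 0.965 CPM in class 4 and 1.24 and 1.25 in classes 1 and 8. The class 4 values rest on 2 and 3 reads, and those of classes 1 and 8 on 2 and 5. The region inside Sox12 was higher in fetal nuclei in both pairs, with ratios of 3.03 and 2.47. In class 6 it was lower in fetal nuclei, at 13.8 and 17.1 CPM against 42.6 and 25.9 in adult nuclei. These rest on 2, 6, 18 and 15 reads.

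Motif columns describe how open the regions with a given motif are in each nucleus, as a chromVAR deviation score around 0. They say nothing of which factor is bound, since SOX proteins recognise near-identical sequences. The Sox4 column had library means of 1.00 and 1.17 in fetal and -0.563 and -0.558 in adult libraries, a difference of 1.65 ± 0.0675 (SE, n = 2 libraries per stage), the third widest rise of the 427 columns, 388 of which are distinct. The Sox12 column had 0.732 and 0.907 in fetal and -0.471 and -0.378 in adult libraries, a difference of 1.24 ± 0.0737. The Sox11 column had 0.512 and 0.604 in fetal and -0.309 and -0.248 in adult libraries, a difference of 0.84 ± 0.0543. All 3 passed in limma, as did 67.9% of all columns, 32.3% as higher and 35.6% as lower in fetal libraries. The members were chosen on their motif scores too, so these calls carry no further reading. The order of the motif columns, with Sox4 first and Sox11 last, was the reverse of the order of the gene spans, but not of the promoter regions. Without fetal replicate 2 Sox4 and Sox12 changed places at the promoters, whose order was then the reverse of this motif order.

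All 12 SOX-named columns passed as higher in fetal libraries, where 32.3% of all 427 columns did. In each of the 12 both fetal means lay above both adult means, but the share of all columns without overlap was not counted. Sox9 had the widest difference among them, 1.72, and Sox15 the narrowest, 0.49. The 12 columns hold no identical pair but are far from separate. Across the 7846 nuclei, which share motif sites and depth, the Sox11 column correlated with Sox8 at r = 0.897 and with Sox12 at 0.747, and Sox4 correlated with Sox12 at 0.698 and with Sox11 at 0.577. Over the medians of the 14 classes the closest columns were Sox2 (0.983), Sox8, Sox6, Sox21 and Sox12 for Sox4, Sox21 (0.993), Sox8, Sox12, Sox9 and Sox10 for Sox11, and Sox9 (0.995), Sox8, Sox21, Sox11 and Sox4 for Sox12. The 5 columns most like each SoxC column were all SOX columns.

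**Figure D4:**
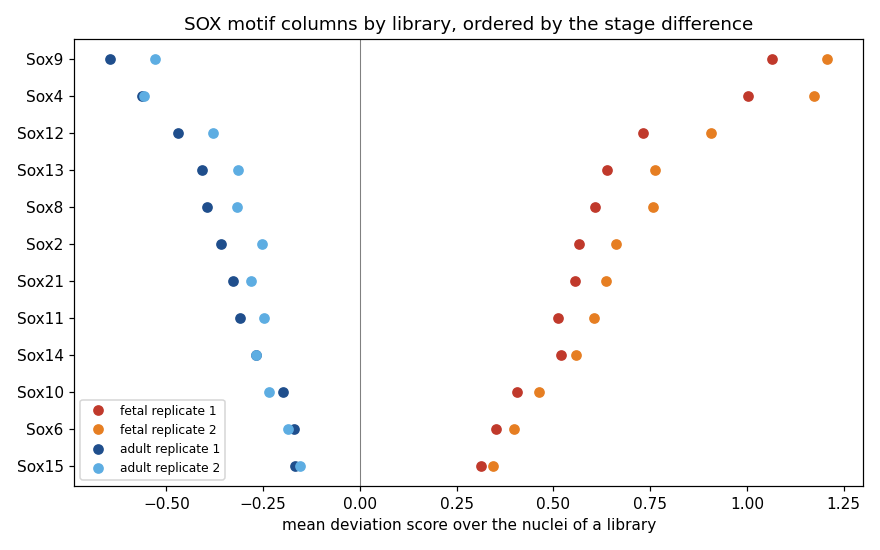
Mean deviation score over the nuclei of each library (horizontal axis) for the 12 SOX-named motif columns (vertical axis), ordered by the stage difference. Both fetal points lie above 0 and both adult points below 0 in every column, with Sox9 and Sox4 at the top and Sox15 at the bottom.

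By class, the SoxC motif columns had their lowest medians over all nuclei in mature luminal-marked nuclei. Adult classes 2 and 11 had the lowest Sox4 medians, -1.68 and -1.52, and the highest were in fetal classes 12 and 5, 1.76 and 1.72. The medians of the adult basal-marked and luminal progenitor-marked classes lay between 0.08 (class 1) and 0.47 (class 3). The Sox12 column ran from -1.19 in class 2 to 1.31 in class 5, and the Sox11 column from -0.74 in class 2 to 1.02 in class 5. Adult classes 10 and 14, with mature luminal markers beside those of other types, were also low, at -0.89 and -0.90 for Sox4, -0.62 and -0.60 for Sox11 and -0.84 and -0.54 for Sox12. Fetal class 13 was low too, at -0.75 for Sox4, -0.56 for Sox11 and -0.76 for Sox12, so low scores were not limited to adult nuclei. For Sox11 the library medians of classes 10 and 14 overlapped those of class 11. In class 6, fetal and adult nuclei had Sox4 medians of -0.44 and -0.29 and of -0.41 and -0.70, which overlap. Its Sox11 medians were -0.39 and -0.25 in fetal and -0.46 and -0.77 in adult nuclei. Its Sox12 medians were -0.70 and -0.88 in fetal and -0.96 and -1.19 in adult nuclei. In both columns fetal values were higher with no overlap, but the share of all columns without overlap in class 6 was not counted.

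**Figure D5:**
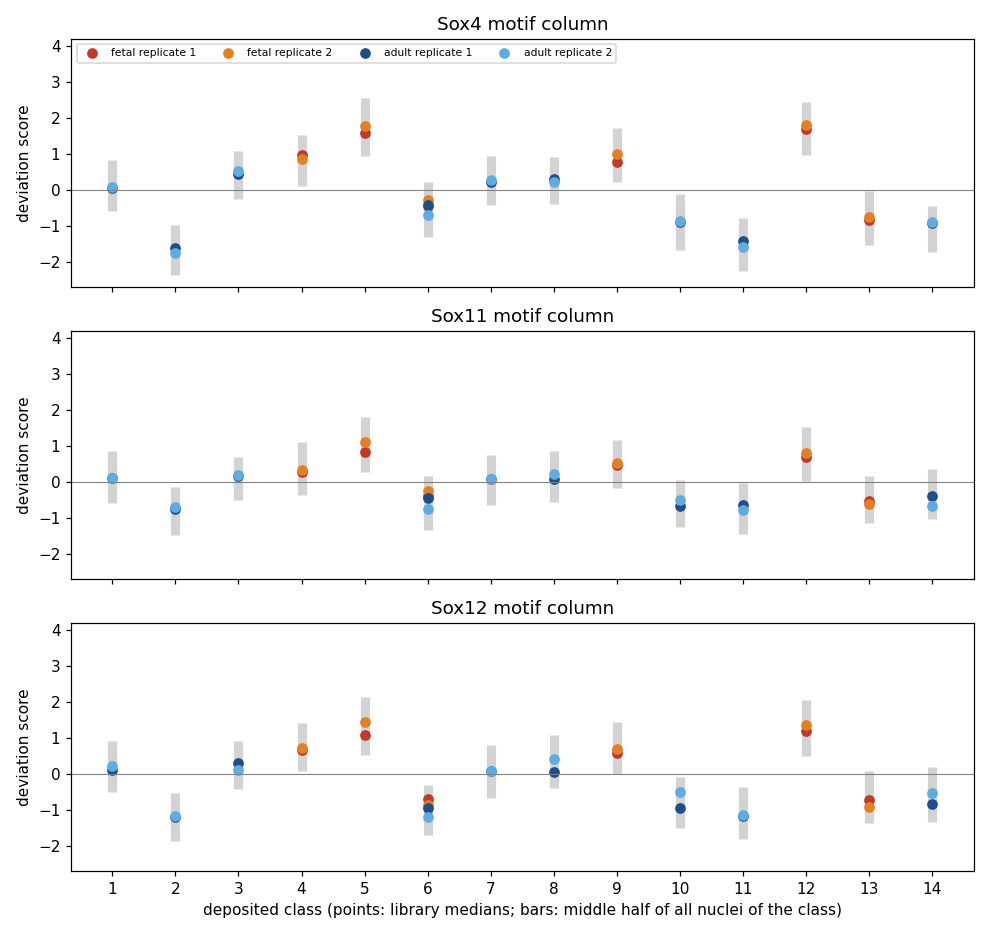
Deviation scores of the Sox4, Sox11 and Sox12 motif columns (vertical axes) in each deposited class (horizontal axis), with points at library medians and grey bars from the lower to the upper quartile of all nuclei of the class. Classes 5 and 12 stand highest in each panel and classes 2 and 11 lowest for Sox4, while for Sox11 and Sox12 the adult replicate 2 point of class 6 reaches as low as class 11.

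The stage difference of the motif columns shrank within similar classes. In the luminal pair the Sox4 column had means of 0.861 and 1.03 in fetal class 9 and 0.287 and 0.369 in adult classes 3 and 7, a difference of 0.62. In the basal pair it had 0.845 and 0.866 in fetal class 4 and 0.195 and 0.171 in adult classes 1 and 8, a difference of 0.67. The differences were 0.57 and 0.53 for the Sox12 column and 0.40 and 0.25 for the Sox11 column, with no overlap between stages in any pair. The share of all columns without overlap in these pairs was not counted. Mature luminal markers moved the opposite way to the library means of these columns. Their summed level was 302 and 331 CPM in fetal and 624 and 632 CPM in adult libraries, over 7 of 7 markers measured. Their part in the library means was not tested. The values within pairs leave the mature luminal-marked classes out. They also leave out fetal classes 5 and 12, which had the highest medians in all 3 columns (1.72 and 1.76 for Sox4).

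Gene level and motif score did not run closely together. Over the 14 classes, which share libraries and depth, log2(CPM + 2) of the gene and the median of its motif column correlated at r = 0.63 for Sox4, 0.59 for Sox11 and 0.38 for Sox12. Mature luminal-marked class 2 had the lowest median in all 3 columns and Sox4 and Sox12 genes at 68.5 and 74.3 CPM, while the Sox11 gene, at 4.15 CPM, was also low there. Among themselves the genes correlated over the classes at 0.57 (Sox4 and Sox11), 0.34 (Sox4 and Sox12) and 0.56 (Sox11 and Sox12).

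The genes whose class profile was most like that of Sox11, by Pearson r of log2(CPM + 2) over 14 classes among 14970 genes, were Fgf20 (0.936), a fibroblast growth factor, Nrn1, Zdbf2, Efhd1 and Evx2, a homeobox gene. For Sox4 they were Tlx3 (0.847), a homeobox gene, Aire, Sall4, a zinc finger factor of embryonic cells, Cdk5rap1 and Rnase1. For Sox12 they were Msrb1 (0.943), Vps25, Rpl3l, Vti1a and Git1. No SOX gene was among these 15.

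Other SOX genes were measured beside the SoxC group. Of 17, 16 were tested, 10 passed as higher in fetal libraries and 0 as lower, with a median log2 fold change of 0.53, where the median of all genes was 0.01 and 11.3% passed as higher. The SoxB2 genes Sox14 (1.51 ± 0.224 SE) and Sox21 (1.06 ± 0.128 SE), the SoxB1 gene Sox1 (1.20 ± 0.189 SE) and the SoxE gene Sox10 (0.96 ± 0.121 SE) passed, all 3 SoxD genes passed (Sox5 not without fetal replicate 2, at 0.38), and none of the 3 SoxF genes did, although Sox17 passed without adult replicate 2, at 0.87. Sox9, whose motif column had the widest SOX difference, had 75 and 70.4 CPM in fetal and 75.4 and 68.6 CPM in adult libraries. Sox18 had the only negative value, -0.18, and did not pass. At 2.86, the value of Sox11 was higher than that of each of the 16. The calls of Sox2 and Sox15 were lost under 6 and 5 of 14 other settings. Mature luminal markers moved the opposite way, with the summed levels given above, and their part in the SOX values was not tested.

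TGF-beta genes are upstream of Sox4 in the literature. Of 8, 4 passed as lower in fetal libraries and 0 as higher, with a median of -0.34, where 10.9% of all genes passed as lower. They were the ligands Tgfb1 (-0.77 ± 0.128 SE) and Tgfb3 (-0.42 ± 0.124 SE) and the signal transducers Smad3 (-0.67 ± 0.105 SE) and Smad4 (-0.36 ± 0.119 SE). Smad4 lost its call under 8 of 14 other settings, and the count was 2 without fetal replicate 1 and 2 without fetal replicate 2. Tgfb2, a ligand gene at 0.24, did not pass but did as higher with a replicate block. Tgfbr2, a receptor gene at -0.33, did not pass but did under 7 of 14 other settings. Mature luminal markers moved the same way, with the summed levels given above, and their part in the TGF-beta values was not tested. Of 8 genes reported as SoxC targets in other tissues, 3 passed as higher and 0 as lower, with a median of 0.36, where 11.3% of all genes passed as higher. Those were Dcx (1.36 ± 0.194 SE), a microtubule protein of young neurons, Mex3a (0.86 ± 0.145 SE), an RNA-binding protein, and Vim (0.76 ± 0.118 SE), the mesenchymal intermediate filament. Tubb3, Tead2, Ezh2, Stmn2 and Nes did not pass, Nes (0.51) passing under 4 of 14 other settings. Fibroblast markers, which mark cells that also use Vim, summed to 112 and 116 CPM in fetal and 99.6 and 98.7 CPM in adult libraries over 6 of 6 markers. Neuron markers, beside Dcx, summed to 275 and 263 CPM in fetal and 241 and 258 CPM in adult libraries over 4 of 4 markers, and 3 of the 4 were raised in fetal class 13. The part of either marker list in these values was not tested.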

How the data were processed

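Read positions with a barcode per read, lists of kept barcodes, 2 region lists, a table of motif scores with class and read count per nucleus, and a table of pair scores were used. Bowtie2, MACS2, bedtools and the build mm10 are named in the submitters' processing notes; versions, parameters, shifts and duplicate removal are not given in the sources used here. The deposited counts per nucleus equalled the reads carrying the barcode in all 7846 nuclei. The authors' deposited motif scores are chromVAR deviations, and the deposited pair score is Cicero co-accessibility; the motif collection is not given in the sources used here. The deposited Cicero gene scores were not used, because their numbered columns name no sample.

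Reads of listed barcodes were counted in each feature they overlapped by at least 1 base, without shift, and summed per library. Each deposited position counted as 1 read, and ends of the same fragment were not matched. The positions spanned 163 to 200 bases, with a median of 195 in each library. Gene coordinates and sequences are RefSeq GRCm38.p6. Promoter, distal and gene counts were fitted over all features averaging 10 reads or more per library, using edgeR 4.0.16 (quasi-likelihood, TMM) in R 4.3.3. An adjusted p (Benjamini-Hochberg) under 0.05 was a call. An SE is the absolute log2 fold change over the square root of F. Library means of motif scores were fitted with limma 3.58.1. DESeq2 1.42.0 was an alternative. Scripts were tested on simulated data. Python 3.11.15 was used for counting and plots.

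The members and all gene lists were chosen with earlier results of these data known. Named distal regions were, per gene, the 3 highest and 3 lowest log2 fold changes within 100 kb among regions averaging 50 reads or more per library, and up to 5 links of the promoter. The rule named promoter regions holding a start; the Sox12 region, which lies just upstream of its start, was added after its position was seen. For likeness the 5 highest correlations were named, among genes with at least 500 reads. Class values are given for libraries with at least 20 nuclei of the class. Doublets were not called, since the deposited classes were taken as they stood. Equal replicate numbers are not said to share a litter or day, so the main fits had no block, and a fit with one was an alternative.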

Additional observations from a re-analysis of the deposited data

Results flagged for a closer look

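The region 39.6 kb upstream of Sox12 (chr2:152437144-152438143) had pooled ratios on opposite sides of 1 in the 2 lineages. Fetal class 9 over adult classes 3 and 7 gave a ratio of 1.15, with both fetal libraries above both adult libraries (12.0 and 12.9 against 11.1 and 10.5 CPM). Taken apart, class 3 had 2.45 and 13.6 CPM and class 7 had 15.7 and 7.59 CPM, so each reached above class 9 in 1 library. Fetal class 4 over adult classes 1 and 8 gave 0.439, with both fetal libraries below (6.18 and 11.3 against 22.9 and 16.8 CPM). The difference between the lineages was not tested, and fetal replicate 1 of class 4 had 6 reads there.

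Barcodes that the authors did not list as nuclei also carried reads over these genes, 319 for Sox4, 82 for Sox11 and 311 for Sox12, above the 3 reads that a count of 0 allows. Among unlisted barcodes Sox11 had 43.7 and 28.3 CPM in fetal and 8.82 and 9.51 CPM in adult libraries, so its stage order there was that of the listed nuclei. Sox4 had 54.6 and 59.2 CPM in fetal and 69.6 and 40.6 in adult libraries, which overlap. Sox12 had 76.4 and 69.5 CPM in fetal and 62.7 and 37.0 in adult libraries.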

How the results depend on the processing

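No gene span, promoter region or motif column of the members changed direction under any setting tried. The log2 fold change of the gene span ranged from 2.74 to 3.00 for Sox11, from 0.43 to 0.65 for Sox12 and from 0.10 to 0.39 for Sox4. Promoter calls over all regions numbered 3992, 2622 with DESeq2 and 2514 to 3057 with 1 library left out. With 1 library left out, the lone library of a stage is assumed to vary like the other stage. Distal calls numbered 43423, 24872 with DESeq2, 15301 with a mean of at least 50 reads, and 30355 to 42172 with 1 library left out. Gene calls numbered 4172 and 1812 to 4459 with 1 library left out. Motif calls numbered 290 and 209 to 265 with 1 library left out. With a replicate block the counts were 4294, 40678, 6424 and 313, and Sox4 passed at 0.31. Samples of equal number share only a number by the labels, their deviations correlating at 0.071, 0.055, 0.29 and 0.45 in 2 pairs. The ratio of the highest Sox4 class to all nuclei was 1.26, 1.14 with no flank and 1.31 with 5 kb. That of the lowest was 0.733, 0.669 per read in regions, 0.859 with no flank and 0.849 with 5 kb. With a limit of 0.1 in place of 0.25 the promoters of Sox4, Sox11 and Sox12 had 9, 14 and 4 links, and at 0.5 all had 0. With 2 libraries per stage, stage cannot be told apart from anything else that differs between the fetal and adult preparations, among them the deeper fetal nuclei. Low regions and classes of few nuclei rest on single-digit reads.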
